A study of Mus musculus with 6 samples.

Results

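The genes described here are 10 immediate-early genes outside the AP-1 and EGR families: the Krüppel-like factor genes Klf2, Klf4 and Klf6, the orphan nuclear receptor gene Nr4a1, the phosphatase gene Dusp1, the immediate early response genes Ier2, Ier3 and Ier5, the anti-proliferative gene Btg2 and the RNA-binding protein gene Zfp36. They were picked by name with their differences between the genotypes in these same arrays already known, so those differences are given as a description and carry no test. Every probe set (a group of probes for 1 transcript) annotated to exactly 1 of these genes was taken. All 10 genes were found among the 12393 genes with a probe set of their own, through 16 probe sets, of which 15 held values and 1, for Btg2, was empty on every array.

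CD11c+ cells were taken from spleens with magnetic beads (MACS), and their RNA was hybridised to Affymetrix MOE430A arrays. The mice were untreated, 8 weeks of age and on the C57BL/6J background in both groups, with 3 arrays from WT mice and 3 from Atg16L1 hypomorphic mice, which carry an allele of reduced function. ATG16L1 directs the attachment of ATG8 proteins to forming autophagosomes. The labels give neither the allele nor the animals behind each array, so the spread between arrays may be technical, and 3 arrays a group limit the precision. Atg16l1 itself read 7.05, 7.11 and 7.04 on the WT arrays and 6.13, 5.84 and 6.11 on the hypomorph arrays (log2 expression; limma adjusted p = 0.00163). Itgax, which encodes CD11c, fell from 10.32 ± 0.13 to 9.94 ± 0.07 (SD, n = 3, limma adjusted p = 0.0341). The class II gene H2-Ab1 averaged 13.30 in wild type and 13.38 in the hypomorph. Both belong to a list of 12 measured conventional dendritic cell markers, of which 2 rose and 3 fell, beside 9.76% and 8.47% of all genes. With 1 array left out, 1 to 2 of the list rose and 1 to 3 fell. Sirpa (log2 difference 0.96) and Xcr1 (0.46) rose, and Zbtb46 (-0.63) and Ciita (-0.93) fell besides Itgax.

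Immediate-early genes are transcribed soon after a stimulus without new protein synthesis, through factors already in the cell, mainly SRF with its TCF partners and CREB, which MAP kinases activate. Most of their mRNAs are short-lived. In dendritic cells and macrophages they include factors that reset transcription (the KLF and NR4A families) and brakes on the response itself: DUSP1 dephosphorylates p38 and JNK, while ZFP36 (tristetraprolin) and BTG2 bring deadenylases to mRNA.

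The promoters of 9 members were matched in RefSeq (GRCm38.p6), all but Ier2, and the 250 bases before the annotated start were searched on both strands. The full cAMP response element (CRE) TGACGTCA was present in 2 of the 9, Btg2 and Dusp1, against 1.55% of all 32851 promoters of that length. Its core TGACG, which each full element also contains on both strands, was present in 5 of 9 (Btg2, Dusp1, Klf2, Klf4 and Nr4a1) against 17.8%. The CArG box, which SRF binds, was present in 1 of 9, Zfp36, against 1.47%. The GC box GGGCGG, a site for SP and KLF proteins, was present in 9 of 9 against 32.7%. The AP-1 element TGANTCA, the TATA box in the strict form TATAAA and the NR4A element AAAGGTCA were found in 0 of 9, against 6.75%, 12.4% and 1.34%. Other forms of the TATA box were not searched, so this count does not show that the promoters lack one. A match describes letters only. The 4 promoters below are printed because they hold a full CRE, the 4 CRE cores of Nr4a1 or the CArG box; capitals mark CRE letters and, in Zfp36, the CArG box. They lie at chr1:134079156-134079405 (minus strand), chr17:26508473-26508722 (minus strand), chr15:101266596-101266845 (plus strand, inside the annotated span of the gene) and chr7:28379229-28379478 (minus strand), and each reads 5′ to 3′ up to the base before the start.
Btg2: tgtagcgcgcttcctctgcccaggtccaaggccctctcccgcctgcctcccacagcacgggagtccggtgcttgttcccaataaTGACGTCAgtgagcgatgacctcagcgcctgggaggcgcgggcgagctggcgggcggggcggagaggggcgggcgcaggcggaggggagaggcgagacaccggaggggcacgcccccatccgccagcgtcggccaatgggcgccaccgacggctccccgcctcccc
Dusp1: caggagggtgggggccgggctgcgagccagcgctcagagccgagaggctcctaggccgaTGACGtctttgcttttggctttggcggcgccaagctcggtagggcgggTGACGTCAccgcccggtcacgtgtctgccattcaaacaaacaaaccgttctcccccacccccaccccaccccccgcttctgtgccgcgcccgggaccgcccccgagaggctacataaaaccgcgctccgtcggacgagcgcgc
Nr4a1: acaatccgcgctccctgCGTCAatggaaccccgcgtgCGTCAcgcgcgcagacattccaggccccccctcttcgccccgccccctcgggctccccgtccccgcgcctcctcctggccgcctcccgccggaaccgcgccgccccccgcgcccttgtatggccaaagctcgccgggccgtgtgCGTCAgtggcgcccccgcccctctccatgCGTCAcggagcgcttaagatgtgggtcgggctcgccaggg
Zfp36: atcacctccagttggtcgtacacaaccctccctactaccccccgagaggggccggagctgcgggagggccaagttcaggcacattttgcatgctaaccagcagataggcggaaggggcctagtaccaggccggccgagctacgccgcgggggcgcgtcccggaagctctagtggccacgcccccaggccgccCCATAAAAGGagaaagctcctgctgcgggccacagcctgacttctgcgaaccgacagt

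The groups also differed outside these genes. Of the 12393 genes, 18.2% passed an adjusted p under 0.05 with limma: 9.76% stood higher in the hypomorph and 8.47% lower, so a call by itself was common here. The poly-A spike-ins, bacterial transcripts added before labelling, averaged from 8.95 to 9.96 on the wild-type arrays and from 7.58 to 7.90 on the hypomorph arrays. For beta-actin the 3′ probe set exceeded the 5′ probe set by 0.94 to 1.02 (log2) in wild type and by 0.69 to 0.77 in the hypomorph. The same 3′ to 5′ difference for Gapdh was 0.45 to 0.63 in wild type and 0.36 to 0.41 in the hypomorph. The hybridization controls (11.1 to 11.6 against 10.3 to 10.4) and 18S ribosomal RNA (9.30 to 9.67 against 8.71 to 8.83) were also higher in wild type. Each of these measures had an exact permutation p of 0.1 (two-sided), the smallest that 3 against 3 arrays allow. Whether macrophages in these samples express the genes below was not measured. Of 19 markers of red pulp and marginal zone macrophages 18 rose and 0 fell, and their mean level was 8.67 to 9.30 in wild type and 10.60 to 10.70 in the hypomorph. The marker that did not pass was Siglec1 (4.35 in wild type and 4.47 in the hypomorph, limma adjusted p = 0.77). Marco had the smallest log2 difference of those that rose, 0.79 (limma adjusted p = 0.0343). With any 1 array left out, 17 or 18 of the 19 rose. This list and the gene lists below were chosen with earlier results of these data known, so their counts are a description. A change in the share of cells of a type and a change in RNA per cell cannot be told apart in such bulk samples. The part of these markers and of the spike-ins in the results below was not tested.

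Markers of other cell types were counted in the same way, beside 9.76% of all genes that rose and 8.47% that fell. Of 12 conventional dendritic cell markers 2 rose and 3 fell, of 7 plasmacytoid dendritic cell markers 3 rose and 0 fell, and of 6 monocyte markers, which include Nr4a1 itself, 1 rose and 0 fell. The monocyte marker that rose was Csf1r, which is also counted among the macrophage markers above (limma adjusted p = 0.00137). Of 7 B cell markers 0 rose and 4 fell, of 7 T cell markers 1 rose and 0 fell, of 7 neutrophil markers 1 rose and 1 fell, of 6 erythroid markers 1 rose and 0 fell, and of 8 endothelial and stromal markers 0 rose and 2 fell. Of 7 NK cell markers 0 passed with limma, also 0 at an unadjusted p under 0.05. These counts were small and changed with the arrays used: with 1 array left out, from 0 to 6 B cell markers and from 0 to 4 endothelial and stromal markers fell, the B cell count being 0 without hypomorph replicate 3 and the endothelial and stromal count 0 without hypomorph replicate 2 or 3.

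The 3 KLF genes encode zinc-finger transcription factors, and all 3 were higher on every hypomorph array than on any wild-type array. Klf2, which keeps T cells and myeloid cells quiescent, read 9.14, 9.90 and 10.004 on the wild-type arrays and 11.17, 11.03 and 11.08 on the hypomorph arrays, a 2.66-fold difference (log2 difference 1.41, SE 0.22). Klf4, which acts in monocyte and macrophage differentiation, read 8.63, 9.15 and 9.22 against 10.83, 10.64 and 10.65 by its brighter probe set, a 3.26-fold difference (1.71, SE 0.16). Klf6, a factor that promotes inflammatory gene expression in macrophages, read 8.71, 9.36 and 9.67 against 10.83, 10.65 and 10.71, a 2.80-fold difference (1.49, SE 0.23). For each of the 3 genes the lowest value was on wild-type replicate 1, and the gap between the groups was wider than the range within the hypomorph arrays. The second probe set of Klf4 gave a log2 difference of 1.62 (SE 0.18), and the other 2 of Klf6 gave 1.47 (SE 0.23) and 1.24 (SE 0.24), so each probe set of both genes was higher in the hypomorph.

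Nr4a1 encodes NUR77, an orphan receptor induced by antigen receptor and Toll-like receptor signals, which patrolling monocytes need. It read 10.51, 11.46 and 11.46 in wild type and 11.95, 11.78 and 11.99 in the hypomorph, a 1.70-fold difference (log2 difference 0.77, SE 0.25), the smallest of the 10. The groups did not overlap, but the gap of 0.32 between the lowest hypomorph and the highest wild-type array was narrower than the range of 0.95 among wild-type arrays. The gap was also narrower than that range for Ier3 (0.72 against 1.07), Btg2 (0.51 against 0.63) and, barely, Dusp1 (0.782 against 0.791). For Nr4a1 the difference was 0.45 against wild-type replicates 2 and 3 alone, and 1.40 against replicate 1 alone.

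Dusp1, the phosphatase that shuts off p38 and JNK, read 11.29, 12.08 and 11.89 against 12.97, 12.87 and 13.07, a 2.32-fold difference (log2 difference 1.21, SE 0.20). The hypomorph arrays lay within 0.20 of each other and the wild-type arrays within 0.79, again with replicate 1 lowest.

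The 3 IER genes are named for their early induction and not for a shared protein fold. Ier2, whose product is nuclear and little studied, read 8.75, 9.20 and 9.33 against 10.27, 10.15 and 10.27 (2.20-fold, log2 difference 1.14, SE 0.15). Ier3, or IEX-1, which affects cell survival and is itself bound by ZFP36, read 6.40, 7.48 and 7.25 against 8.44, 8.24 and 8.20 (2.37-fold, 1.25, SE 0.26). Ier5, a target and helper of the heat shock factor HSF1, read 10.20, 10.38 and 10.62 against 11.40, 11.37 and 11.42 by its brightest probe set (1.997-fold, 0.998, SE 0.11). No IER gene had overlapping groups, and Ier5 had the narrowest wild-type range of the 10 members, 0.42. Its second probe set gave 1.008 (SE 0.15). Its dimmest gave 0.60 (SE 0.12) and was the only probe set of the 15 whose lowest array was wild-type replicate 2, at 5.48, not replicate 1, at 5.95.

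Btg2 and Zfp36 act on mRNA decay. Btg2, an anti-proliferative p53 target that stimulates the CCR4-NOT deadenylase, read 10.53, 11.14 and 11.17 against 11.85, 11.68 and 11.89 (1.82-fold, log2 difference 0.86, SE 0.18). Zfp36, whose product binds AU-rich elements in cytokine mRNAs, read 9.22, 10.31 and 10.22 against 11.78, 11.71 and 11.79 (3.59-fold, 1.84, SE 0.27). Zfp36 thus had both the largest difference of the 10 and the widest spread in wild type, a range of 1.09, while its hypomorph arrays lay within 0.07.

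**Figure D1:**
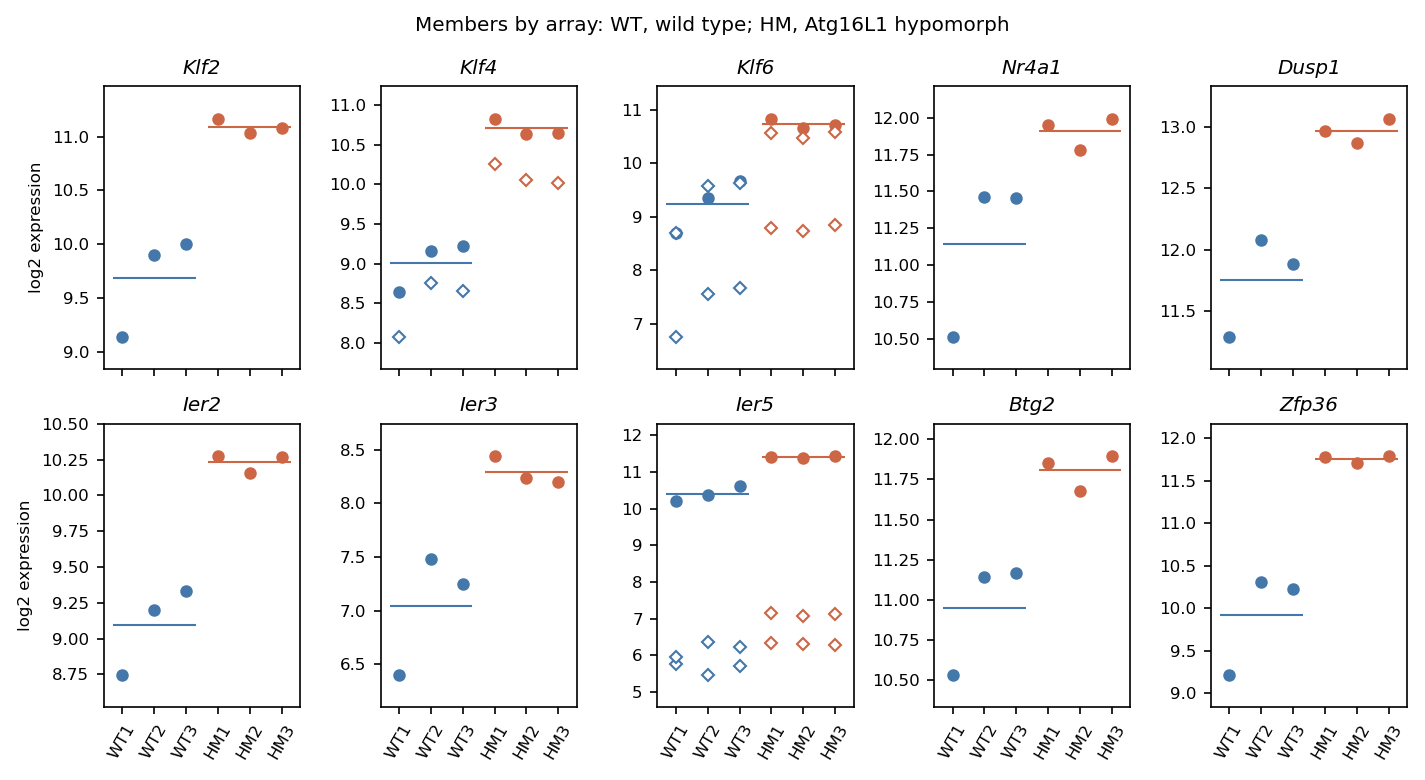
Log2 expression (y axis, a separate scale in each panel) of the 10 members on each of the 6 arrays (x axis; WT, wild type; HM, Atg16L1 hypomorph). Filled circles are the probe set with the highest mean, open diamonds the other probe sets of the gene, and lines the group means of the filled circles. No hypomorph circle lies as low as a wild-type circle of the same gene, and wild-type replicate 1 is the lowest circle in all 10 panels.

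Over the 10 members the log2 differences ran from 0.77 for Nr4a1 to 1.84 for Zfp36 with a median of 1.23, where the median over all 12393 genes was -0.05. The groups did not overlap for 10 of 10 genes and 15 of 15 probe sets, beside 18.5% of all genes and 19% of all probe sets in that direction. In the fit over all genes 9 of the 10 were past the threshold and higher, all but Nr4a1, beside 9.76% of all genes, and 14 of the 15 probe sets, beside 9.95% of all probe sets. Since the genes were picked on this contrast, nothing is read from these counts. Ier3 and Btg2 were not past the threshold with any 1 hypomorph array left out (7 of 10 genes in each case), and Nr4a1 was past it without wild-type replicate 1 (10 of 10).

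The members also varied among the wild-type arrays in a common way. Wild-type replicate 1 was the lowest array for 10 of 10 members, as it was for 21.5% of all genes. It lay 0.30 (Ier5) to 1.05 (Zfp36) below the mean of the other two wild-type arrays, with a median of -0.75 over the members and 0.03 over all genes. The title of that array carries another number as its prefix than those of the other 5 (that of wild-type replicate 3 names another array design), and without it, within the arrays of 1 prefix, the median difference of the members was 0.97. The median SD of a member was 0.44 among wild-type and 0.10 among hypomorph arrays (n = 3 each), beside 0.14 and 0.09 over all genes. The wild-type SD was the larger for 10 of 10 members and for 70.8% of all genes. Hypomorph replicate 2 was the lowest hypomorph array for 9 of 10 members and for 36.5% of all genes, by small margins.

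The poly-A spike-ins were highest on wild-type replicate 1 (9.96), the array on which the members were lowest, and the macrophage markers were lowest there (8.67). When each array's spike-in level entered the fit as a covariate, the median difference of the members was 0.23 and 0 of 10 were past the threshold with limma. Spike-in levels did not overlap between the genotypes (8.95 to 9.96 in wild type, 7.58 to 7.90 in the hypomorph). A fit with both therefore cannot tell genotype and spike-in level apart, and nothing is concluded from the lost calls. In that fit no gene of the 12393 passed (1149 at an unadjusted p under 0.05), and the median standard error over genes was 2.78 times as large. Klf4 was at 0.95 (SE 0.42) there, against 1.71 without the covariate, while Nr4a1 was at -0.60 (SE 0.60) and Btg2 at -0.05 (SE 0.43).

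**Figure D2:**
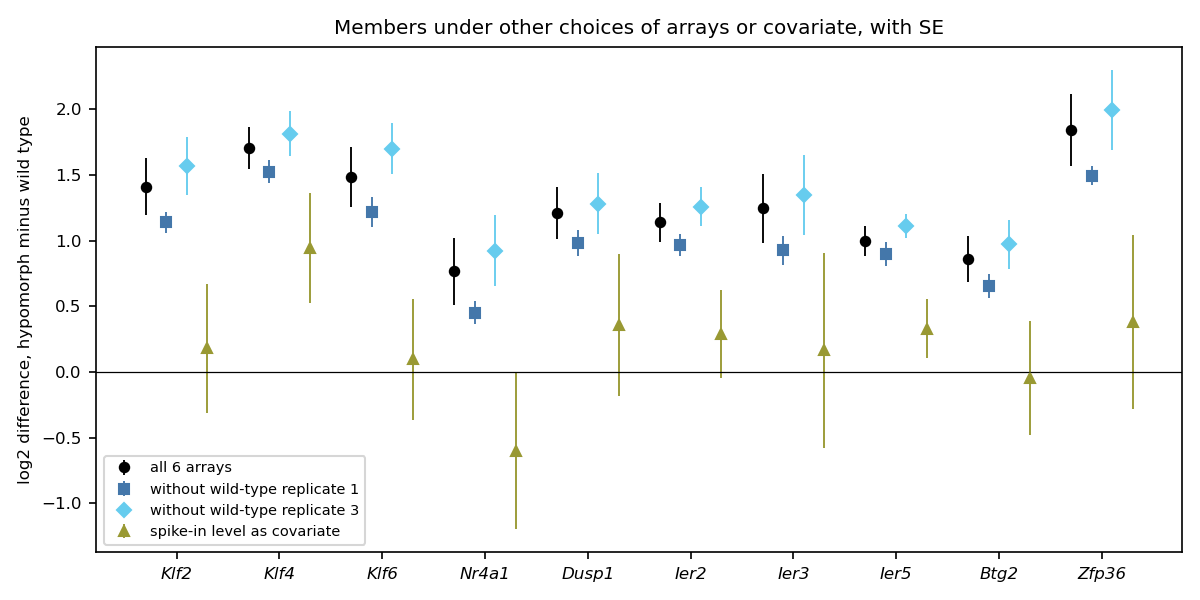
Log2 difference between hypomorph and wild type (y axis) of the 10 members (x axis), with SE bars from limma, for all 6 arrays, without wild-type replicate 1, without wild-type replicate 3, and after adding spike-in level as covariate. Without wild-type replicate 1 the differences are smaller and their bars shorter (Nr4a1 0.45), and with the covariate the bars are the widest and Nr4a1 (-0.60) and Btg2 (-0.05) lie below 0.

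Other genes of the families to which the members belong were counted as well. Of 43 measured relatives of the 6 families 8 rose and 4 fell, beside 9.76% and 8.47% of all genes, with a median log2 difference of 0.09. With any 1 hypomorph array left out, 2 rose and 2 fell. Of the 17 other KLF and SP genes 2 rose and 3 fell. Klf10, which is induced by TGF-beta, rose 1.70-fold (6.57 ± 0.41 to 7.34 ± 0.08, SD, n = 3; limma adjusted p = 0.0368), and the other that rose was Klf15, named after its value was seen (log2 difference 1.25, limma adjusted p = 0.0464). Klf3, a repressor, was 1.41-fold lower (7.90 ± 0.08 to 7.41 ± 0.06, limma adjusted p = 0.00911) by its brightest probe set, while a second probe set of it rose (log2 difference 0.33, limma adjusted p = 0.0436), so its direction is not settled. Sp3 was 1.31-fold lower and Klf5, dim at 3.30 and 3.02, 1.21-fold lower. The calls of Klf10, Klf15, Sp3 and Klf5 were lost without any 1 hypomorph array, those of Klf10 and Klf15 also without wild-type replicate 3, that of Klf15 also without wild-type replicate 1, and that of Klf5 without any 1 wild-type array. A second probe set of Klf5 gave 0.11 and did not pass.

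Both other NR4A genes were measured. Nr4a2, or NURR1, read 6.48, 7.60 and 7.94 in wild type and 9.21, 8.60 and 8.75 in the hypomorph, a 2.85-fold increase (log2 difference 1.51, SE 0.37, limma adjusted p = 0.0327) that was lost without any 1 hypomorph array (adjusted p from 0.0794 to 0.109). A second probe set also rose (0.74, limma adjusted p = 0.0258). Nr4a3 read 5.54 ± 0.28 and 5.34 ± 0.17 with overlapping groups (SD, n = 3, limma adjusted p = 0.418). A second, dimmer probe set of Nr4a3 had the other sign (log2 difference 0.26) and groups that did not overlap, and it did not pass (limma adjusted p = 0.192). The difference between family members was not tested.

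Among 17 other DUSP genes 3 rose and 1 fell, beside 9.76% and 8.47% of all genes. Dusp6, which dephosphorylates ERK where DUSP1 prefers p38 and JNK, rose 2.40-fold (8.65 ± 0.36 to 9.91 ± 0.06, SD, n = 3; limma adjusted p = 0.00508). Dusp10 (1.54-fold, limma adjusted p = 0.0473) and the dim Dusp9 (1.79-fold, limma adjusted p = 0.0497) were close to the threshold and were lost without any 1 hypomorph array, Dusp10 also without wild-type replicate 1 or 2 and Dusp9 without wild-type replicate 3. Their other probe sets did not pass. Dusp11, which acts on RNA and not on MAP kinases, was 1.43-fold lower (limma adjusted p = 0.0101), and its second probe set did not pass (log2 difference -0.21). The remaining 13 did not pass, though 2 DUSP genes fell without wild-type replicate 2 or 3.

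In the BTG and TOB family 1 of 4 measured relatives rose and 0 fell, beside 9.76% and 8.47% of all genes. Btg1 rose 1.58-fold (12.26 ± 0.25 to 12.93 ± 0.03, SD, n = 3; limma adjusted p = 0.0167), a call lost without any 1 hypomorph array. Its second probe set had overlapping groups and did not pass (log2 difference 0.43, limma adjusted p = 0.0995). Tob2 (log2 difference 0.41), Btg4 (-0.32) and Tob1 (0.06, and -0.15 without wild-type replicate 1) did not pass. Of the 2 measured ZFP36 relatives, which bind the same elements, Zfp36l2 rose 1.78-fold (11.17 ± 0.24 to 12.00 ± 0.11, SD, n = 3; limma adjusted p = 0.00898) and Zfp36l1 did not pass (log2 difference 0.56, limma adjusted p = 0.0729), though it did without wild-type replicate 1 or 2. Dimmer probe sets of Zfp36l2 gave 0.08 and -0.33. Ier5l, the relative of Ier5, read 4.84 and 4.85, a difference of 0.01 whose sign changed with the arrays used.

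**Figure D3:**
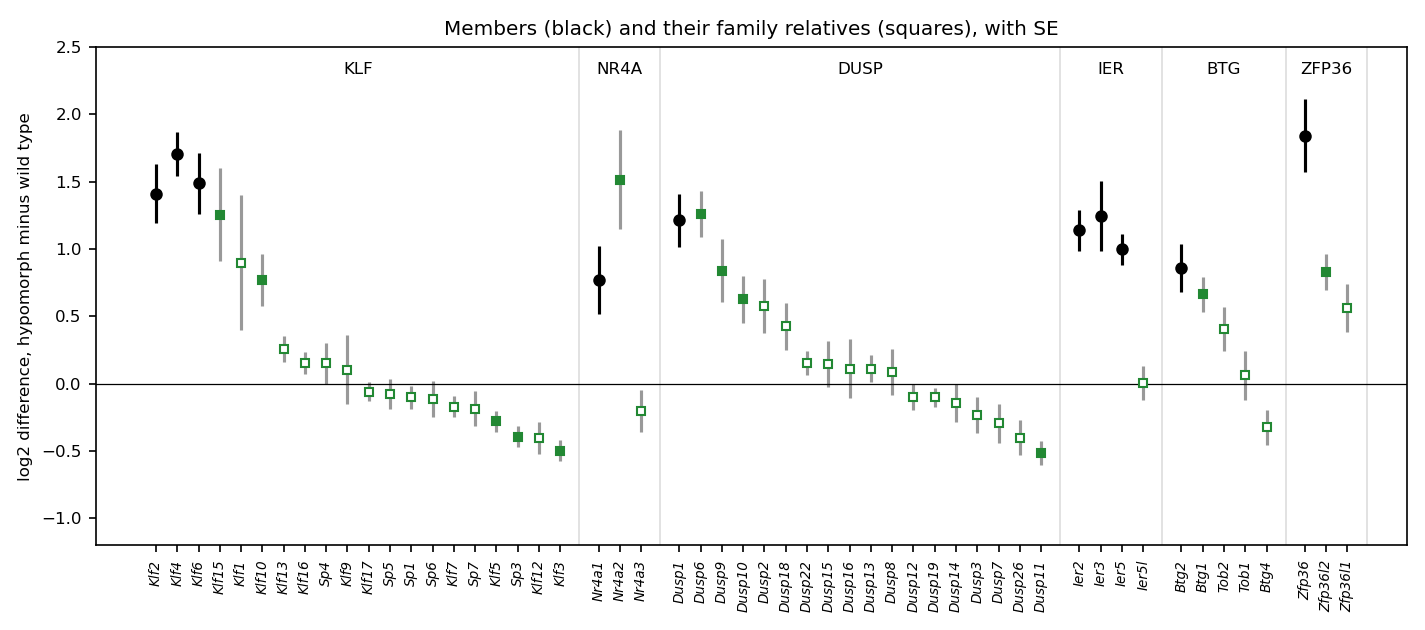
Log2 difference between hypomorph and wild type (y axis) with SE for each member (black circles) and each measured relative (squares, filled where limma called the gene) of the KLF and SP, NR4A, DUSP, IER, BTG and TOB, and ZFP36 families. Members lie from 0.77 to 1.84, and the relatives spread on both sides of 0, with 8 risen and 4 fallen of 43.

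Genes for proteins that act upstream of the members were also counted. Of 12 SRF, TCF and CREB regulators 2 rose and 0 fell, with a median of -0.07. Elk1, a TCF partner of SRF, rose 1.23-fold (5.08 ± 0.06 to 5.38 ± 0.07, SD, n = 3; limma adjusted p = 0.0377), and Creb1 1.28-fold (6.34 ± 0.13 to 6.69 ± 0.10, limma adjusted p = 0.0445). Neither call held without any 1 hypomorph array or without wild-type replicate 1 or 2, and the Elk1 call also failed without wild-type replicate 3. None of the other probe sets of both genes passed. Of 15 measured genes for MAP kinases, their kinases and their effectors 2 rose and 2 fell, beside 9.76% and 8.47% of all genes. Mapk8, which encodes JNK1, rose 1.86-fold (7.28 ± 0.19 to 8.18 ± 0.004, SD, n = 3; limma adjusted p = 0.00306), and Mapkapk2, the p38 effector kinase that phosphorylates ZFP36, rose 1.33-fold (limma adjusted p = 0.00923, lost without hypomorph replicate 3). Mapk11, or p38 beta, was 1.53-fold lower (limma adjusted p = 0.00982) and Mapk7, or ERK5, 1.28-fold lower (limma adjusted p = 0.0285, lost without any 1 hypomorph array or wild-type replicate 3). The second, dimmer probe set of Mapk11 did not pass (log2 difference -0.27). Of 2 other probe sets of Mapk8, 1 rose (0.47) and 1, far dimmer, did not (0.03).

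On the side of mRNA decay, the 11 measured deadenylase and poly(A)-binding genes had a median of -0.24. Of these 3 fell and 0 rose, beside 8.47% and 9.76% of all genes. Pan2, the catalytic subunit of the PAN deadenylase, was 1.41-fold lower (8.26 ± 0.06 to 7.76 ± 0.05, SD, n = 3; limma adjusted p = 0.00658). Pabpc4 was 1.33-fold lower and Cnot6l 1.25-fold lower, and both calls were lost without any 1 hypomorph array, that of Cnot6l also without wild-type replicate 3; the other 3 probe sets of Cnot6l and the second of Pabpc4 did not pass. With any 1 hypomorph array left out, 1 of the 11 fell. Of 14 genes whose mRNAs ZFP36 is known to bind, 6 rose and 0 fell, beside the same shares, with a median of 0.97. Il12b, which encodes the p40 subunit of interleukin 12, rose 3.85-fold (6.06 ± 0.14 to 8.00 ± 0.15, SD, n = 3; limma adjusted p = 0.000997), Ccl2 1.87-fold, Il1a 2.41-fold and Il10 3.08-fold (4.38 ± 0.53 to 6.00 ± 0.20, limma adjusted p = 0.00846). The other 2 that rose, named after their values were seen, were the chemokine genes Ccl3 (log2 difference 2.23) and Ccl4 (1.80). Tnf, the classic target of ZFP36, read 7.26 and 7.41 (log2 difference 0.16, limma adjusted p = 0.189). Of the 14, 4 rose without any 1 hypomorph array and 8 without wild-type replicate 2.

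Other early response genes were counted in 2 lists, beside 9.76% of all genes that rose and 8.47% that fell. Of 13 AP-1 and EGR factors 8 rose, 0 fell and 5 did not pass (median 1.13), among those that rose Jund (1.76-fold, limma adjusted p = 0.00214), Fos (2.78-fold), Egr2 (3.28-fold) and Fosb (5.48-fold), and 4 or 5 rose when 1 hypomorph array was left out. Of 25 early genes of other families 13 rose, 1 fell and 11 did not pass (median 0.63). Hbegf, an EGF receptor ligand, rose 2.46-fold (5.33 ± 0.18 to 6.62 ± 0.17, SD, n = 3; limma adjusted p = 0.00181), the kinase gene Sgk1 3.06-fold, Trib1 2.25-fold and Plk3 2.43-fold. The gene that fell was Phlda1, named after its value was seen (log2 difference -1.84, limma adjusted p = 0.0345), and that call was lost without wild-type replicate 2 or 3 or any 1 hypomorph array, while 4 genes fell without wild-type replicate 1. From 5 to 7 rose when 1 hypomorph array was left out. Both lists were also lowest on wild-type replicate 1.

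Heat shock genes, a list also chosen with earlier results of these data known, went the other way. Of 11 measured HSF1 targets 10 fell and 0 rose (median -1.82), beside 8.47% and 9.76% of all genes. Their mean level was 10.56, 11.57 and 11.73 on the wild-type arrays and 9.87, 9.57 and 9.47 on the hypomorph arrays, so that here wild-type replicate 1 lay nearest to the hypomorph, whereas for the members it lay farthest from it. The HSP70 genes Hspa1a and Hspa1b were 6.07-fold and 3.53-fold lower, the co-chaperone gene Dnajb1 7.64-fold and the mitochondrial co-chaperonin gene Hspe1 1.62-fold (limma adjusted p from 0.00555 to 0.0122). A second probe set of Dnajb1 had overlapping groups and did not pass (log2 difference -1.08, limma adjusted p = 0.217), and the call of Hspe1 was lost without hypomorph replicate 2 or 3. From 3 to 10 fell with 1 array left out, the fewest without hypomorph replicate 2 or 3 (3 each) or 1 (4), then without wild-type replicate 3 (5) or 2 (6).

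**Figure D4:**
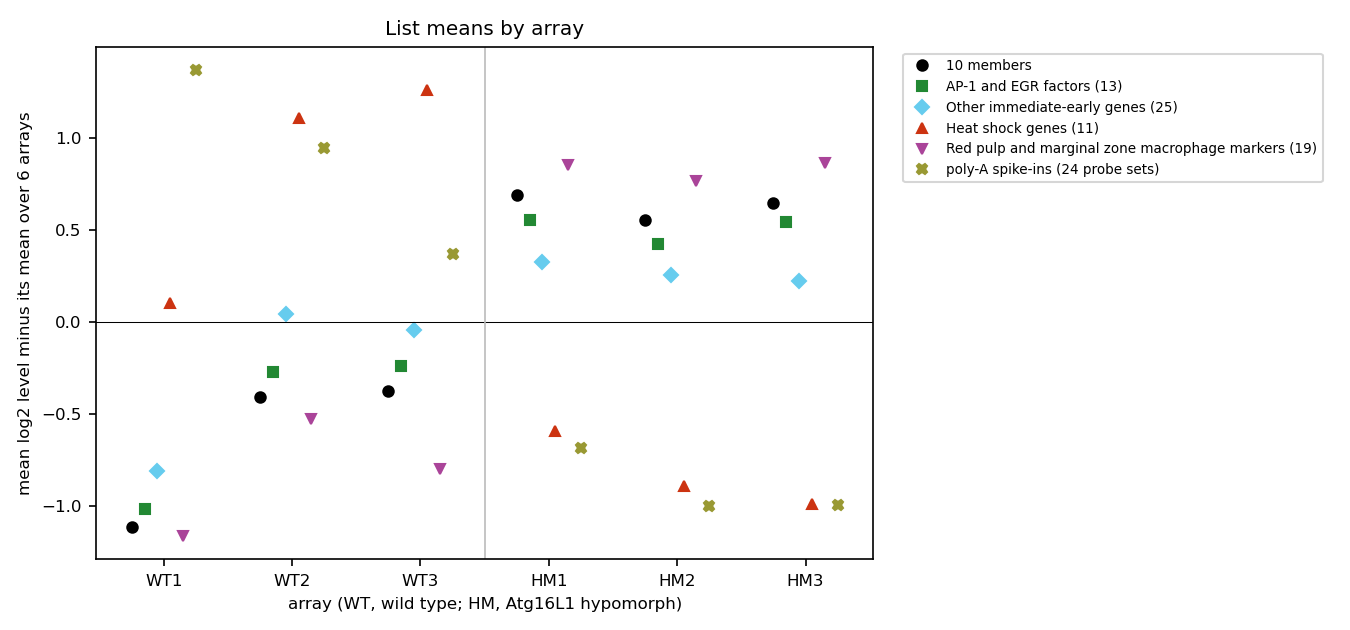
Mean log2 level of the members, of 4 gene lists and of the poly-A spike-ins on each array, each minus its own mean over the 6 arrays (y axis; WT, wild type; HM, Atg16L1 hypomorph; list sizes in the legend). The members run from -1.12 on wild-type replicate 1 to 0.69 on hypomorph replicate 1, macrophage markers and other early genes lie on the same side of 0 as the members on most arrays (other early genes not on wild-type replicate 2), and heat shock genes and spike-ins lie on the other side.

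The genes whose profile over the 6 arrays was closest to the mean profile of the members, by root mean square distance of the centred log2 values, were Hilpda, a lipid droplet protein gene (distance 0.04), Rgs1, a regulator of G protein signalling (0.05), the aminopeptidase gene Lap3 (0.06), Pmaip1, which encodes the BH3-only protein NOXA (0.07), and the AP-1 gene Junb (0.08). Hilpda read 5.95, 6.56 and 6.59 in wild type and 7.70, 7.52 and 7.65 in the hypomorph, and Rgs1 10.80, 11.48 and 11.66 against 12.61, 12.55 and 12.58. The members themselves lay from 0.08 (Klf2 and Dusp1) to 0.31 (Zfp36) from their own mean. This is a likeness over 6 arrays and carries no test.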

How the data were processed

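Each array gave 1 value per probe set. Per the submitters' processing notes the authors used Affymetrix Power Tools. For its version, background correction and summarization nothing was found in the labels. Values as deposited were taken as log2 expression from their range, and as normalized between arrays from their close medians (5.65 to 5.71), so fold changes depend on that base.

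Of 22690 probe sets, 64 controls, 1 without values, 691 naming several genes and 1555 naming none were set aside. For the other 20379, genes were named from the platform annotation, and the probe set of highest mean stood for each of 12393 genes. The comparison of genotypes used lmFit and eBayes (limma 3.58.1, R 4.3.3, two-sided, Benjamini-Hochberg over all genes, or over all single-gene probe sets for other probe sets). It was checked on simulated data with independent errors and the same SD in both groups. In these arrays the wild-type SD was the larger for 70.8% of all genes, a setting that the check did not cover. "Rose" and "fell" mean an adjusted p under 0.05.

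The members and gene lists were chosen with earlier results of these data known, and the motifs after the promoters were seen. Besides members, up to 4 genes of smallest p per functional list were named, all genes of lists of up to 5, and the 5 nearest profiles. List genes without a probe set of their own were not analysed here. Same-numbered arrays of the groups deviated together with correlations of 0.15, 0.01 and 0.11, so the numbers were not taken as pairs. Alternatives changed the probe set rule, filter, normalization, eBayes setting, array weights, replicate block, spike-in covariate and arrays. Python 3.11.15 with pandas 2.3.3 and matplotlib 3.10.9 made tables and plots.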

Additional observations from a re-analysis of the deposited data

How the results depend on the processing

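Apart from the spike-in covariate, each alternative tried left all 10 members higher in the hypomorph and the counts past the threshold within 1.5 times of 9 genes and 14 probe sets. With the poly-A spike-in covariate the member counts were 0 genes and 0 probe sets (limma; 1149 of all genes at an unadjusted p under 0.05) and the median difference 0.23. Differences then turned for Nr4a1 (-0.60), Btg2 (-0.047), Klf10 (-0.064), Nr4a2 (-0.36), Dusp10 (-0.38), Ier5l (-0.083), Btg1 (-0.054), Tob2 (-0.51), Tob1 (-0.94) and Zfp36l1 (-0.33). Spike-in level and genotype cannot be told apart in that fit, since the groups did not overlap in spike-in level, and the cause was not tested. With 1 array left out, member genes past the threshold numbered 7 to 10, probe sets 10 to 15, and the median difference ran from 0.97 to 1.42. Over all functional lists 39 genes rose and 20 fell of 143; these became 0 and 0 with the covariate, and 16 to 41 and 7 to 23 with 1 array left out, fewest without a hypomorph array. With the replicate block 11 fell, and the block left the members at 9 genes and 14 probe sets; numbers shared by arrays were not shown to pair them. With 1 array left out Ier5l ran from -0.070 to 0.14 (below 0 in 4 of 6 cases) and Tob1 from -0.15 to 0.22; array weights gave Tob1 -0.11, and the mean of its probe sets Nr4a3 0.032. Counts of cell type markers under these settings were added after seeing the data. Arrays give no read depth, and detection calls were not used here, so signal over background is unknown for dim genes such as Klf5 and Dusp9.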
